A study of Homo sapiens with 12 samples.

Results

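CDX1, CDX2, HNF4A, VIL1, CDH17, LGALS4, TFF3, REG4, GPX2 and CAPN8 are 10 genes of intestinal epithelial identity, taken by name from a list drawn up with earlier results of these data known. Of these, 9 were measured among 19774 genes on the arrays, through 16 probe sets, and HNF4A was not analysed here. Transcript levels were read on 12 Affymetrix human arrays of HUTU-80, MDST8 and NCI-H716, 3 lines that the labels call colorectal cancer lines whose miR-200 loci are methylated. HUTU-80 is otherwise known as a line from the duodenum, and NCI-H716 as a line from the caecum with enteroendocrine features.

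In every line the comparison was between cells carrying lentiviral miR-200 clusters and 1 control array of the same line. The miR-200c141 construct holds the cluster of miR-200c and miR-141 and was profiled on 4 arrays, a pair of HUTU-80 arrays titled 1:3 and 1:5 and 1 array each of MDST8 and NCI-H716. The sources used here do not explain 1:3 and 1:5, and the pair was averaged into 1 sample, which left 11 samples. The miR-200ba429 construct carries miR-429, miR-200a and miR-200b and was profiled on 3 arrays, 1 a line. Both clusters together were profiled on 2 arrays, of MDST8 and NCI-H716, for which sorted miR-200ba429 cells were given miR-200c141 virus as well, 24 hours later. Transduced cells were sorted on GFP after 48 hours, and RNA was taken 7 days after transduction. The sources used here do not state the treatment of the control cells. Each line and construct is thus a single pool of cells with expression driven by a virus, and the labels do not say whether any arrays came from separate cultures.

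CDX1 and CDX2 are homeodomain transcription factors that specify intestinal epithelium, and with HNF4A they maintain transcription of enterocyte genes in the adult gut. Villin, LI-cadherin and galectin-4 build the brush border, cell contacts and apical membrane rafts of the mature epithelium, while TFF3 and REG4 are secreted by goblet and enteroendocrine cells. The miR-200 family silences ZEB1 and ZEB2, repressors that bind CACCTG E-boxes in epithelial promoters, and is known for keeping cells epithelial.

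The 5 microRNAs of the constructs are shown because their seeds (bases 2 to 8, in capitals) fall into a pair of groups that cut across the constructs. miR-200c, miR-200b and miR-429 share the seed AAUACUG, and miR-141 and miR-200a share AACACUG, so each construct carries both seeds. The sequences are those of RefSeq on GRCh38.p14. The miR-200c and miR-141 arms lie on the plus strand at chr12:6963742-6963764 and chr12:6964155-6964176. The miR-200b, miR-200a and miR-429 arms lie on the plus strand at chr1:1167160-1167181, chr1:1167916-1167937 and chr1:1169055-1169076.
hsa-miR-200c-3p: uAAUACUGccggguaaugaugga
hsa-miR-200b-3p: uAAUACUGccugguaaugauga
hsa-miR-429: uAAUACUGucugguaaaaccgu
hsa-miR-141-3p: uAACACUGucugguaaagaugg
hsa-miR-200a-3p: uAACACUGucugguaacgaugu

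All member levels below are log2 array intensities, and a change is the difference in log2 intensity from the control array of the same line. A value was taken as above background where it exceeded 5.43, the highest of 23 nonspecific control probe sets on any array. On these terms the members were seen in NCI-H716 alone. None of the 9 was above background on any of the 8 arrays of HUTU-80 and MDST8, where their values lay between 2.66 and 4.13. The cutoff is strict. CDX2 was above 3.78, the 95th percentile of the control probe set values, on every HUTU-80 array. LGALS4, VIL1, TFF3 and REG4 were above 3.78 on some HUTU-80 or MDST8 arrays. Over all genes, 45% were above background on every HUTU-80 array, 46.1% on every MDST8 array and 45.3% on every NCI-H716 array. CDX2, VIL1, CDH17, LGALS4, TFF3 and GPX2, 6 of the 9, were above background on all 4 NCI-H716 arrays and on no other, against 2.4% of all genes. REG4 and CAPN8 were above it on the 3 NCI-H716 arrays with a construct but not on the control, and CDX1 was above it on none of the 12 arrays.

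**Figure D1:**
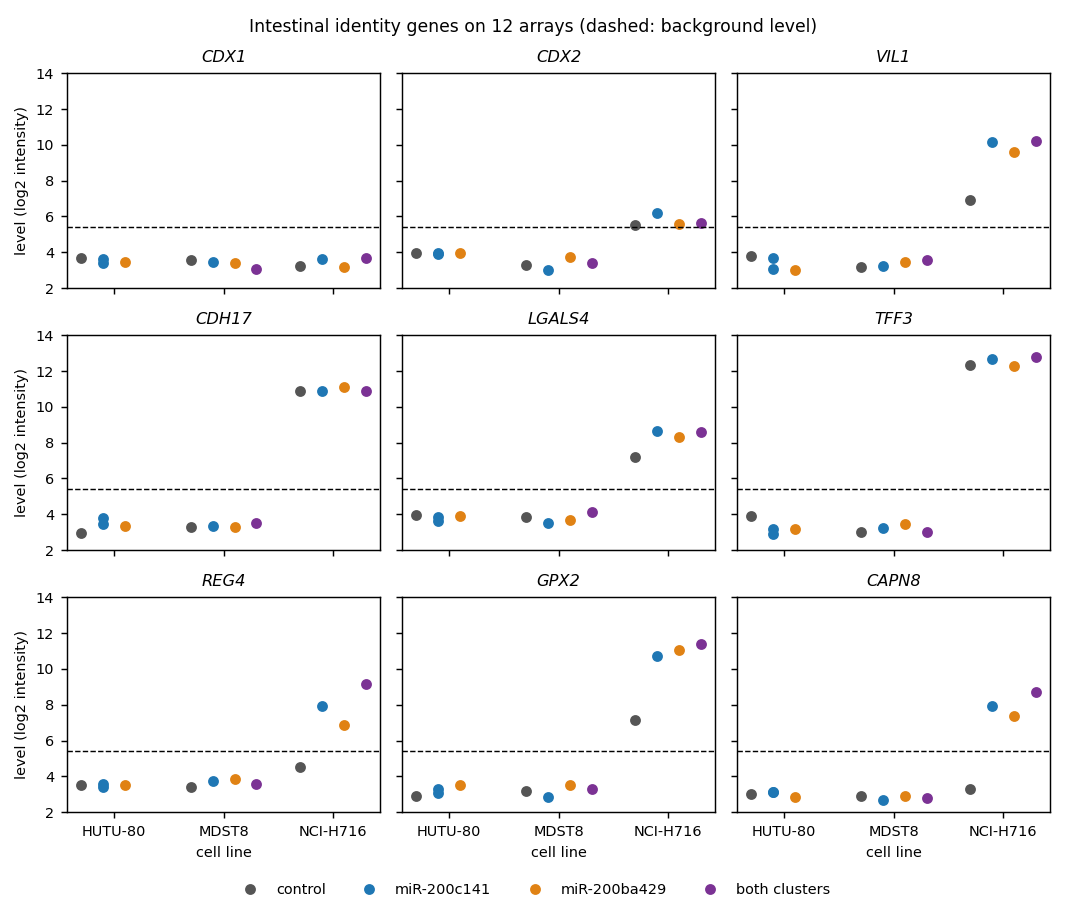
Log2 intensity (vertical axis) of each measured intestinal identity gene on the 12 arrays, grouped by line, with the background level of 5.43 drawn as a line. Values above background are seen only in NCI-H716, where VIL1, LGALS4, REG4, GPX2 and CAPN8 lie higher on the 3 construct arrays than on the control, and CDX1 stays below background throughout.

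The level of the members differed between lines. With the construct as a term, 8 of the 9 passed the moderated F test of limma across lines (Benjamini-Hochberg adjusted over all genes), a test that 62.1% of all genes passed. CDH17 (adjusted p 2.51e-11 by limma) and TFF3 (3.96e-11) had the smallest adjusted p of the members, and CDX1 (0.751) did not pass. In 8 of the 9 the lowest NCI-H716 value lay above the highest value of the other lines, CDX1 being the exception. For REG4 and CAPN8 that lowest value was the control, at 4.51 and 3.27. Both are below background, so for them the order does not measure a difference between lines. How many of all genes are ordered in this way was not counted. In the NCI-H716 control TFF3 stood 123-fold and CDH17 44.2-fold over the background level, against 3.48-fold for LGALS4, 3.26-fold for GPX2, 2.86-fold for VIL1 and 1.07-fold for CDX2. These folds set each probe against a fixed background value and give no order of abundance between genes.

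The labelled line identities were read against epithelial markers. Of EPCAM, CDH1, KRT8, KRT18 and KRT19, 4 of 5 were above background in the NCI-H716 control, the exception being CDH1 at 4.01. In the HUTU-80 control 1 of 5, KRT8, and in the MDST8 control 1 of 5, KRT18, was above background, so most of these markers were below background in both controls. With a construct 3 to 4 of 5 were above background in HUTU-80 and 1 to 2 of 5 in MDST8. In NCI-H716 7 of 10 measured enteroendocrine markers were above background on each array, with a summed level of 81.7 in the control and 80.1 to 80.4 with a construct. The repressor ZEB1, a known target of the miR-200 family, read 10.15 in the NCI-H716 control, 8.43 with miR-200c141, 8.85 with miR-200ba429 and 8.34 with both clusters. Its fitted change in this line, -1.60 ± 0.62 (SE), did not pass (limma adjusted p 0.545). ZEB2 was below background on every NCI-H716 array.

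The comparison of constructs with control asked which of the members move when miR-200 is restored. Within NCI-H716, GPX2 and VIL1 rose with the constructs, 15.2-fold and 8.29-fold, and CAPN8 rose from a control below background to a mean at least 5.91-fold above the background level. REG4 and LGALS4 were higher on all 3 construct arrays but did not pass the test, and CDX1, CDX2, CDH17 and TFF3 had fitted changes of 0.07 to 0.28. All 3 construct arrays are set against 1 control array, so an error of that array enters every change of this line. The variation of the control was assumed to be that of the other arrays. That variation was pooled from different constructs over all lines, including HUTU-80 and MDST8, where the members lie below background. The standard errors of the members within NCI-H716 may therefore be too small.

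The promoters of members that lay over 1 unit above the control on all 3 NCI-H716 construct arrays (VIL1, LGALS4, REG4, GPX2 and CAPN8), where the sequence table holds them, are printed to show the E-box letters that ZEB1 is known to bind. Each is the 250 bases before the annotated start on GRCh38.p14, from RefSeq, 5′ to 3′ on the minus strand, which carries these genes. GPX2 is at chr14:64942746-64942995, CAPN8 at chr1:223665702-223665951, LGALS4 at chr19:38812946-38813195 and REG4 at chr1:119811461-119811710. Capitals mark matches to CACCTG, on either strand, to the CDX letters TTTATG and to the antioxidant response core TGACNNNGC.
GPX2: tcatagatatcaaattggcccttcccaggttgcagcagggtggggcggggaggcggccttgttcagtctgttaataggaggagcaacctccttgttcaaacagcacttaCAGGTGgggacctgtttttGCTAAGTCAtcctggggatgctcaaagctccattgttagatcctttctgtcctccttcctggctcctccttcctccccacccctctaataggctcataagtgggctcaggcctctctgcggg
CAPN8: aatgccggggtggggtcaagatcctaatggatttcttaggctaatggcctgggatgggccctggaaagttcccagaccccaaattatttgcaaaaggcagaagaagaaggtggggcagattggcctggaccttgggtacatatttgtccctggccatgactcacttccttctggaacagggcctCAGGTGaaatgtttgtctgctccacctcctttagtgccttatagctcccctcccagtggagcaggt
LGALS4: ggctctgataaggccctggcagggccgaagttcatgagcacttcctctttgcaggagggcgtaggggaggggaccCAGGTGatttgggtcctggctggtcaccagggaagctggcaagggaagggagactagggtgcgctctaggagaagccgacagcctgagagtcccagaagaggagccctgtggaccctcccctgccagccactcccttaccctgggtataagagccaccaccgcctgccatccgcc
REG4: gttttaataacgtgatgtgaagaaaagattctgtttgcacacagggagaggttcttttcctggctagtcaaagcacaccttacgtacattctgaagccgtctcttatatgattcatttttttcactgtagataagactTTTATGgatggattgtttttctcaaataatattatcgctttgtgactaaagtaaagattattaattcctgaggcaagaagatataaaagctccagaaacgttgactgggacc

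GPX2, CAPN8 and LGALS4 each hold 1 E-box, read as CAGGTG on the printed strand, ending 136, 61 and 170 bases before the start, while REG4 and CDX2 hold none. E-boxes are found in 17.5% of 35116 promoter windows of this length. GPX2 holds 1 antioxidant response core, matched as GCTAAGTCA and placed 122 to 114 bases before the start, and so does CDX2, whose change did not pass the test within NCI-H716, against 10.9% of windows. REG4 holds 1 match to TTTATG, 112 to 107 bases before its start, as 9.64% of windows do. The HNF4 letters CAAAGTCCA, in 0.325% of windows, occur in none of the 5 windows, those of GPX2, CAPN8, LGALS4, REG4 and CDX2. The promoter of CDH17 is not reported here. The motifs did not overlap each other, and a match is a description of letters, not of binding.

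CDX2, which with CDX1 specifies intestine, was near background. CDX2 read 5.53 in the NCI-H716 control, 6.21 with miR-200c141, 5.57 with miR-200ba429 and 5.62 with both clusters. Of these the miR-200c141 array was highest, and the other 3 lay within 0.10 of each other and close to background. The fitted change of CDX2 was 0.27 ± 0.35 (SE; 95% interval -0.50 to 1.04, limma adjusted p 0.910, 3 samples against 1). A second CDX2 probe set was below background on every array and gave -0.10. CDX1, the other CDX factor, read 3.23, 3.65, 3.18 and 3.67 in the same order, all below background, and its fitted change of 0.28 ± 0.25 (adjusted p 0.858 by limma) is a difference between values that do not measure the gene.

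Among the genes of structure and adhesion, VIL1 rose and CDH17 did not pass. VIL1 encodes villin, the actin-bundling protein of the microvillus core, and lies at chr2:218419123-218453295. It read 6.95 in the NCI-H716 control, 10.18 with miR-200c141, 9.58 with miR-200ba429 and 10.24 with both clusters, that is 9.38-fold, 6.19-fold and 9.81-fold over the control. Each construct array lay 2.63 units or more above the control, and the array with miR-200ba429 was the lowest of them. The fitted rise was 3.05 ± 0.33 (SE), or 8.29-fold, with an adjusted p of 0.0111 by limma. Without the NCI-H716 miR-200c141 array the change was 2.96 and just missed the threshold (adjusted p 0.0536). All 4 VIL1 probe sets passed when each was tested on its own. Their changes were 2.95 and 3.05 where the control was above background. They were 3.35 and 3.56 where the control was below it, and those are no measure of size.

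CDH17 encodes LI-cadherin, an adhesion protein of the basolateral membrane of enterocytes. It read 10.89 in the control, 10.91 with miR-200c141, 11.08 with miR-200ba429 and 10.90 with both clusters. The 4 arrays spanned 0.19 units, and the fitted change was 0.07 ± 0.25 (95% interval -0.48 to 0.63, limma adjusted p 0.977). LGALS4, for galectin-4, a lectin that clusters glycolipids and glycoproteins of the apical membrane, read 7.23, 8.65, 8.33 and 8.60 in the same order. Each construct array lay over 1 unit above the control, at 2.68-fold, 2.15-fold and 2.59-fold, but the fitted change of 1.30 ± 0.31 (95% interval 0.61 to 1.98) did not pass (limma adjusted p 0.225).

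The secreted products differed from each other as well. TFF3, the trefoil peptide of goblet cell mucus, read 12.37 in the control, 12.65 with miR-200c141, 12.26 with miR-200ba429 and 12.80 with both clusters. Construct arrays fell on both sides of the control, and the fitted change was 0.20 ± 0.28 (95% interval -0.42 to 0.82, limma adjusted p 0.921). The highest value of any gene on the arrays was 13.77, and whether saturation limited TFF3 was not tested. REG4, a secreted C-type lectin of the regenerating family found in enteroendocrine and goblet cells, read 4.51 in the control, below background, then 7.93 with miR-200c141, 6.88 with miR-200ba429 and 9.13 with both clusters.

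For REG4 those levels were at least 5.67-fold, 2.73-fold and 13-fold above the background level, the bound used because the control is not measured. The construct arrays spread over 2.25 units, the widest of the 9 members, and the fitted change of 3.47 ± 0.63 (95% interval 2.07 to 4.87) did not pass (limma adjusted p 0.109). The call turned on single libraries. Without the NCI-H716 miR-200ba429 array the change was 4.03 (adjusted p 0.00455), without the array with both clusters 2.90 (0.0452), and with the HUTU-80 pair entered as separate arrays the adjusted p was 0.0399. A second REG4 probe set read 3.63, 6.84, 5.67 and 8.35 in the same order and gave a change of 3.32 (adjusted p 0.164 over all probe sets), and the remaining one was below background on every array.

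Both enzymes of the set passed the test. GPX2, the gastrointestinal glutathione peroxidase that reduces hydroperoxides in crypt epithelium, read 7.13 in the control, 10.73 with miR-200c141, 11.07 with miR-200ba429 and 11.38 with both clusters. These were 12.1-fold, 15.3-fold and 19.0-fold over the control, the construct arrays lay within 0.65 units of each other, and the fitted rise was 3.93 ± 0.35, or 15.2-fold (limma adjusted p 0.00380). A second, dimmer GPX2 probe set read 4.0 in the control, below background, then 5.72, 5.78 and 6.75. Its change of 2.08 starts from that unmeasured control and did not pass on its own (limma adjusted p 0.123).

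CAPN8, a calpain protease of gastrointestinal mucous cells, read 3.27 in the control, below background, then 7.92 with miR-200c141, 7.34 with miR-200ba429 and 8.71 with both clusters. The levels with constructs were at least 5.62-fold, 3.77-fold and 9.71-fold above the background level. Its fitted rise of 4.72 ± 0.43 (limma adjusted p 0.00380) starts from that unmeasured control and so is no measure of size.

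Within NCI-H716 3 of 9 members were called, all higher, where 0.152% of all genes were called and 0.116% were called higher. The members were named with earlier results of these arrays known, so these shares describe the chosen genes and are no test of them. The count over all genes was 30, and ran from 6 without the NCI-H716 miR-200c141 array to 102 without the NCI-H716 miR-200ba429 array, with 2 and 4 members called. The median change was 1.30 for the 9 members and -0.01 for all genes. More than 1 unit above the control on all 3 construct arrays lay 5 of 9, VIL1, LGALS4, REG4, GPX2 and CAPN8, against 0.647% of genes. In order of fitted change among 19774 genes, GPX2 was at place 10, VIL1 at 23 and LGALS4 at 180, while CDX2, TFF3 and CDH17 lay at 3073, 4297 and 7368. No place is given for CAPN8, REG4 and CDX1, whose control was below background.

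**Figure D2:**
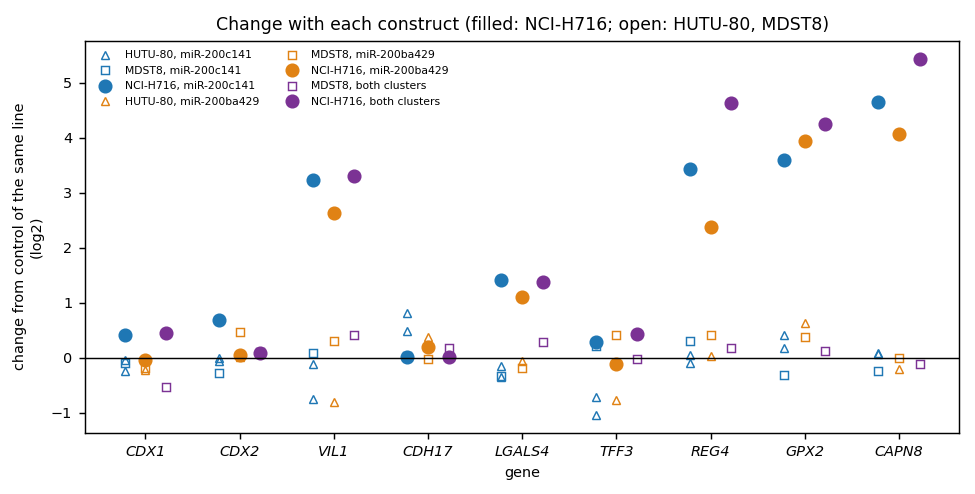
Change in log2 intensity from the control array of the same line (vertical axis) for each member, by construct and line. In NCI-H716 the points of VIL1, GPX2, REG4, CAPN8 and LGALS4 lie above 1 for each construct, and the points of HUTU-80 and MDST8 compare values that are all below background.

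**Figure D3:**
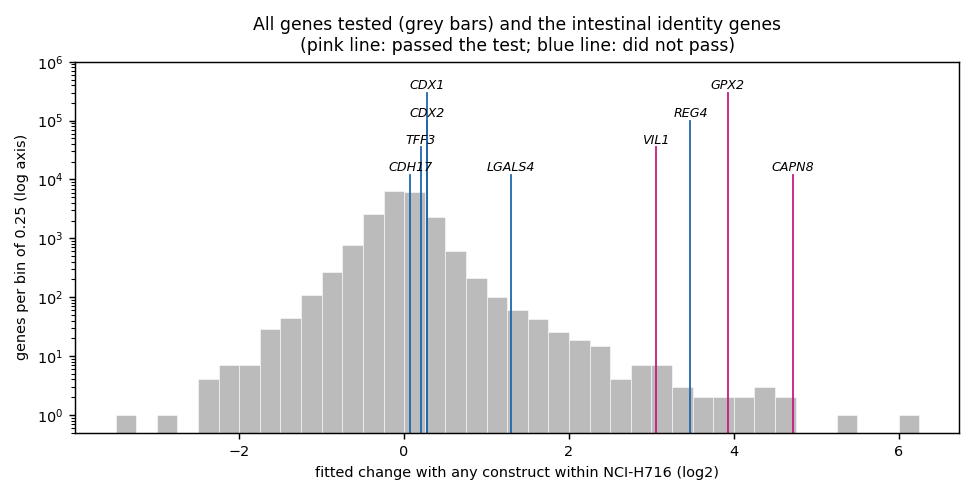
Fitted change with any construct within NCI-H716 (horizontal axis, log2) for all 19774 genes as grey bars, with the number of genes per bin on a log axis, and each member drawn as a line whose height carries no value. CAPN8, GPX2 and VIL1 passed the test and lie in the upper tail with REG4, though the positions of CAPN8 and REG4 start from a control below background, while CDX1, CDX2, TFF3 and CDH17 sit near 0.

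The constructs were not equal on these arrays, though each was profiled once in this line and their differences were not tested. VIL1, LGALS4, REG4 and CAPN8 were lowest with miR-200ba429, and GPX2 was lowest with miR-200c141. With both clusters, REG4 and CAPN8 were higher than with either alone, by 1.20 and 0.79 over miR-200c141. For VIL1 and LGALS4 the array with both clusters and that with miR-200c141 differed by 0.06 and 0.05.

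In HUTU-80 and MDST8 the members gave no measurable response. Within HUTU-80, where 0.0253% of genes were called, and within MDST8, where 0.0607% were called, 0 of 9 members passed limma's test. Of 19774 genes 892 and 1103 had an unadjusted p under 0.05, as did 1 and 0 of the 9 members. All their values there were below background with or without a construct, so these arrays do not resolve a change that stayed under that level.

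Whether the change with any construct differed between the lines was tested by limma's moderated F over the interaction of line and construct. No member passed, CAPN8 coming nearest (adjusted p 0.0529) ahead of GPX2 (0.0801) and VIL1 (0.0828). At an unadjusted p under 0.05 there were 6 of the 9 members and 987 of 19774 genes. After adjustment 0.00506% of all genes were called. CAPN8, GPX2 or VIL1 passed under some other settings, for example VIL1 with all of its probe sets averaged (0.0319) and GPX2 without MDST8 (0.0469), so a difference of response between lines was not settled.

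Comparisons across lines against the 3 controls called no member. With any construct, with miR-200c141 and with miR-200ba429, 0% of genes were called by limma. An unadjusted p under 0.05 was found for 3, 0 and 1 members, against 1851, 1302 and 1214 of 19774 genes. With both clusters in MDST8 and NCI-H716, 6.14% of genes but 0 of 9 members were called. At an unadjusted p under 0.05 there were 3 of the 9 members and 4354 of 19774 genes. There the changes were 2.04 ± 0.76 (SE) for REG4 (limma adjusted p 0.145), 1.87 ± 0.76 for GPX2 (0.176), 2.18 ± 0.98 for CAPN8 (0.223), 1.37 ± 0.68 for VIL1 (0.270) and 0.68 ± 0.35 for LGALS4 (0.289). Each averages a line above background with one below it, and without MDST8, which leaves 1 array with both clusters whose spread is taken from the other groups, REG4 alone passed, at 3.66 (adjusted p 0.0339 by limma).

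Within NCI-H716, limma called 4 of 187 measured genes of all the lists, which leave the members out, or 2.14%, against 0.152% of all genes. The lists were chosen with earlier results known, so this share is no test of them. Of 15 measured brush border genes, the group of villin's partners, 0 were called within NCI-H716, with a positive change in 14 and a median of 0.23 against -0.01 for all genes. EPS8L3, a relative of a microvillar capping protein, had the largest change among those named, 1.65 ± 0.39 (limma adjusted p 0.228). Of 17 intestinal transcription factors 0 were called, with a median of 0.17 and 9 positive. ELF3, an epithelial ETS factor, read 7.31 in the control and 8.41, 8.34 and 8.85 with the constructs (1.23 ± 0.29, limma adjusted p 0.228). In the same order SOX9 differed from the control by -0.34, -0.18 and -1.67, and KLF5 by -0.03, 0.14 and -0.12. GATA6 differed by 1.75, 0.43 and 1.83 from a control below background.

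Among 26 enterocyte genes, of which 9 were above background in NCI-H716, 18 were positive with a median of 0.08, and 1 was called, MEP1A, the alpha subunit of the brush border protease meprin. MEP1A read 4.17 in the control, below background, and 6.73, 5.96 and 6.84 with miR-200c141, miR-200ba429 and both clusters (limma adjusted p 0.0395). GUCA2B, for the enterocyte peptide uroguanylin, differed from the control by -1.53, -1.21 and -1.72 with the constructs and did not pass (adjusted p 0.124 by limma). The other genes picked from this list went the other way. GUCA2A differed by 1.37, 1.02 and 1.19 and KRT20 by 0.91, 0.75 and 1.39, without passing (limma adjusted p 0.175 and 0.406). Among 23 goblet and secreted genes 0 were called, with a median of 0.16. TFF1, a gastric relative of TFF3, read 6.22 in the control and 9.14, 8.24 and 9.67 with the constructs, just short of the threshold (limma adjusted p 0.0557).

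The surface glycoproteins and galectins, the class of LGALS4, had the highest median of these lists, 0.97 over 17 genes with 14 positive, and 2 were called. CEACAM5, the carcinoembryonic antigen, read 5.68 in the control and 10.93, 10.25 and 11.67 with the constructs, a rise of 5.27 ± 0.45 (limma adjusted p 0.00380). CEACAM6, its close relative, rose by 2.75 ± 0.28 (limma adjusted p 0.00818) from 9.13. For the enzymes, 0 of 17 glutathione peroxidases and NRF2 targets were called (median 0.19, 15 positive) and 0 of 13 calpains (median 0.19, 10 positive). AKR1B10, an aldo-keto reductase and known NRF2 target, read 3.81, 6.91, 8.52 and 8.82 (limma adjusted p 0.144), and CAPN9, the partner of CAPN8 in gastric calpain, had a fitted change of 1.64 ± 0.40 without passing (adjusted p 0.236 by limma).

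Of 15 epithelial identity genes 1 was called on the same arrays, EPCAM: 14 of 15 were positive with a median of 0.89. EPCAM, the epithelial adhesion molecule, rose from 9.29 to 12.18, 11.61 and 12.38 (limma adjusted p 0.0459). CDH1, for E-cadherin, read 4.01, 8.52, 6.64 and 9.03 and did not pass (adjusted p 0.109 by limma). With both clusters in MDST8 and NCI-H716, limma called 8 of 187 measured list genes, or 4.28%, which is below the 6.14% called over all genes. ZEB1 fell by 2.11 (adjusted p 0.00224 by limma) and LGALS1, a galectin of mesenchymal cells, fell by 0.75 (0.0442). LGALS3, another galectin, rose by 1.45 (adjusted p 0.0204 by limma) and KLF4, a goblet cell transcription factor, by 1.32 (0.0219). The keratins KRT18 and KRT7 rose by 1.48 and 2.03 (limma adjusted p 0.00659 and 0.0269). AKR1B10 and GCLM, a subunit of the enzyme of glutathione synthesis, rose by 3.34 and 0.95 (adjusted p 0.0295 and 0.00940 by limma). LGALS1, KLF4, KRT18 and KRT7 were named after their values were seen.

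**Figure D4:**
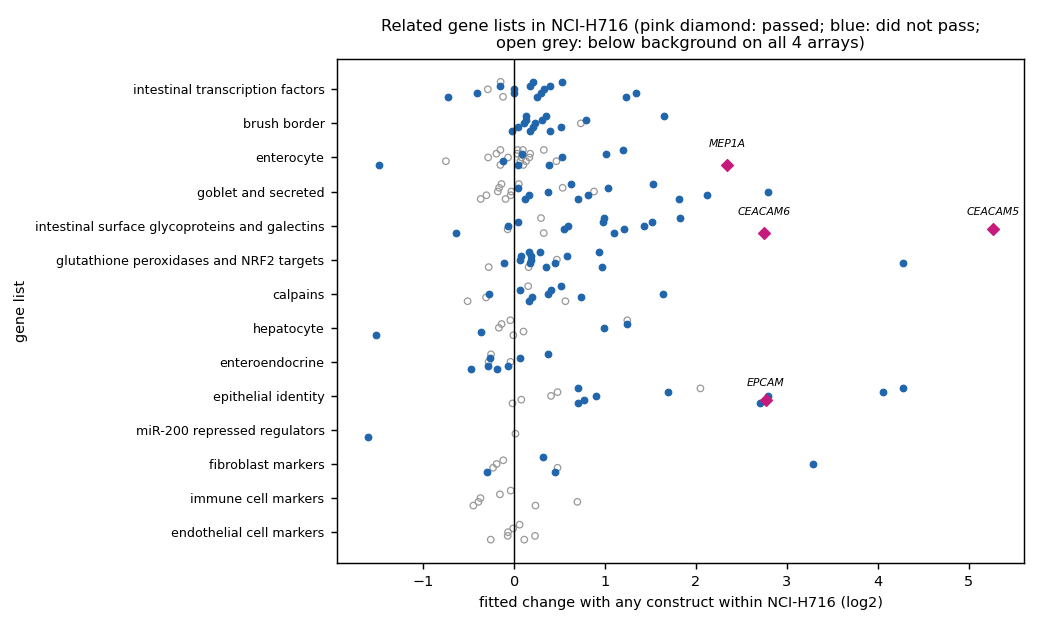
Fitted change with any construct within NCI-H716 (log2) for the measured genes of each list, members left out, 1 point a gene. The surface glycoprotein and epithelial lists have medians of 0.97 and 0.89, and the brush border, transcription factor, goblet, glutathione and calpain lists have medians of 0.16 to 0.23, with 0.08 for the enterocyte list and -0.22 for the enteroendocrine list.

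Markers of other cells were read on the same arrays. Of 7 measured immune markers and 7 endothelial markers 0 were above background in NCI-H716, and in the same arrays 2 to 3 of 10 hepatocyte markers were. Fibroblast markers were above background for 3 to 4 of 8, with a summed level of 50.0 in the control and 51.4 to 55.8 with a construct. The fitted change was positive in 4 of the 8, with a median of 0.10. COL1A1 had the largest, and read 3.19, 6.72, 5.12 and 7.57 (limma adjusted p 0.143). It was below background in the control and with miR-200ba429, and its part in the rise of the members was not tested. A sign of RNA quality, the excess of the 3′ over the 5′ probe set of ACTB, was 2.33 in the control and 2.37 to 2.63 with a construct, highest with both clusters, and its part in the results was not tested. In such bulk arrays a change in the share of cells and a change in RNA per cell cannot be told apart.

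Genes whose changes were most like each member's were named by Pearson's r over the 8 samples with a construct, among 11710 genes above background on some array. The samples of a line share 1 control, 5 of the 8 come from lines in which the members lie below background, and r is given as a description. For CAPN8 these were CEACAM5 (r 0.996), SPINT2 (0.994) and CEACAM6 (0.992), and for GPX2 LOC105375172 (0.991), CEACAM6 (0.988) and CEACAM5 (0.986). REG4 was most like LYZ (0.995), the gene of lysozyme, then ASGR2 (0.994) and TMEM45B (0.994). VIL1 was most like PPP1R1B (0.989), MEP1A (0.987) and BOD1L1 (0.987), and LGALS4 like SLC50A1 (0.988), HMGXB3 (0.981) and TM4SF4 (0.980). A high r does not mean a change of like size. With the constructs in NCI-H716, BOD1L1 differed from the control by 0.53, 0.40 and 0.58. SLC50A1 differed by 0.41, 0.275 and 0.46, and HMGXB3 by 0.47, 0.44 and 0.45. For the members that differed little from the control the highest r rested on small changes: 0.931 for CDX2 with ALX1, 0.967 for CDH17 with LPCAT1 and 0.988 for TFF3 with ZNF423.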

How the data were processed

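Levels were measured on Affymetrix U133 Plus PM arrays. The authors deposited log2 intensities per probe set, made by RMA (background correction, quantile normalization and summary of probes) per the submitters' processing notes, with the software version not given in the sources used here. Quantile normalization gives all arrays the same distribution and RMA compresses differences near background, so low values understate change. Depth has no meaning for arrays, and their number, 12, limits the precision.

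Of 54715 probe sets, 40920 name 1 gene and 864 name several, which were left out. The probe set with the highest mean stood for each of 19774 genes. HNF4A was not analysed here. Values lay between 2.05 and 13.77. Background was the highest value of 23 nonspecific control probe sets, 5.43.

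Tests used limma 3.58.1 (lmFit, eBayes with a variance trend) in R 4.3.3, with the line as a fixed term and a threshold of 0.05 on p-values adjusted by Benjamini-Hochberg over the whole gene table. Changes within a line and the difference between lines came from 1 model with an interaction of line and construct. It has 5 residual degrees of freedom, and the single control of a line was assumed to vary like the other arrays. Separate cultures are not mentioned in the labels, so p-values measure the spread between these arrays, which may be technical. With the HUTU-80 pair averaged, no construct was repeated within a line. The residual spread of the interaction model is thus between different constructs, pooled over the lines. It includes HUTU-80 and MDST8, where the members lie below background and RMA compresses differences. For the members, standard errors and p-values within NCI-H716 may therefore be too small. Scripts were tested on simulated data.

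The members and lists were chosen with earlier results of these data known. The text names all members and up to 3 genes most like each member that was above background on 2 or more arrays. From each list up to 4 genes were picked, those with the largest change from the control of a line on any array. They were picked among genes above background there, and the text names only some of them. Keratins KRT8, KRT18 and KRT19 were named as epithelial markers. The alternatives tried were another choice of probe set, the separate HUTU-80 arrays, the filter on dim genes, the variance trend, the line term, centring, the groups fitted, and leaving out each line and array.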

Additional observations from a re-analysis of the deposited data

How the results depend on the processing

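Within NCI-H716 the calls of CAPN8 and GPX2 held without each of the other 11 arrays in turn (without the line's single control no change can be fitted), and 3 members were called with only that line's arrays fitted, an alternative chosen after seeing the data. That of VIL1 was lost without the miR-200c141 array of that line. Leaving out 1 array gave 2 to 4 members and 6 to 102 genes called there. It gave 0 to 4 genes with any construct, 0 to 10 with miR-200c141 and 383 to 1680 with both clusters. For the difference between lines it gave 0 to 31 genes and 0 to 3 members, within HUTU-80 2 to 9 genes and within MDST8 0 to 129. Without MDST8, 8 genes were called with any construct, 22 with miR-200c141 and 6 with miR-200ba429, 1 member with both clusters (REG4, on 1 array with both clusters), and 4 genes with 2 members for the difference between lines. Without HUTU-80, 362 genes were called with both clusters and 0 for the difference, and without NCI-H716 0 for the difference. With the HUTU-80 arrays entered separately, 3 genes were called with miR-200c141, 14 genes and 3 members for the difference, and 13 genes within HUTU-80. With only the groups compared, 4 genes were called with miR-200c141 and 19 with both clusters. With probe sets averaged, 662 genes were called with both clusters, and 3 genes with 1 member for the difference. Without the variance trend these were 679 and 0 genes, and without the line as a term 0 genes were called with both clusters. Centring each array on its median gave 5 genes and 1 member for the difference. With only genes above background tested, 2 genes were called within MDST8 and 13 within NCI-H716. With only arrays of the line fitted, which was chosen after seeing the data, 133 genes were called within HUTU-80, 0 within MDST8 and 10 within NCI-H716. CAPN8 turned to -0.084 with both clusters once NCI-H716 was left out, a value between readings below background. CDX2 turned to -0.10 with its dimmer probe set. The causes were not tested. Construct and control arrays were paired by line through the line term, and the labels give no shared replicate numbers for a further block. The limits are 1 control array a line and a background level that hides any change below it.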
